A study of Mus musculus with 2 samples.

Results

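Tight junctions seal the space between neighbouring epithelial or endothelial cells, and the genes described here encode their parts: 17 claudins, the 3 occludin family proteins, 4 cytoplasmic scaffolds, 3 junctional adhesion molecules, 5 polarity proteins and the adhesion proteins Epcam and Cdh1. These 34 genes were a named list, matched by gene identifier to mouse GENCODE M21 symbols, and all 34 were found among the 43346 mouse genes of the gene files. The RNA, total RNA above 200 nt, came from the bladders of 2 newborn B6NCrl mice, littermates carried by 1 female and collected at postnatal day 0, and 10 ng of it went into each library. The labels name 2 separate pups, with a shared donor entry, and give no sex, transgene or treatment. The libraries held 43653931 expected counts for pup 1 and 32564563 for pup 2. Both form 1 group (n = 2), so there was no contrast between groups and no p-value could be computed, and differences between the pups are described without a test.

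Claudins span the membrane and join with claudins of the next cell. Some kinds tighten the seal and others form pores for small ions and water, so the mix of claudins sets how leaky an epithelium is. Occludin and tricellulin belong to a related membrane family, the ZO scaffold proteins tie the strand to actin, and the Par and Crumbs complexes fix the position of the junction between the apical and the lateral membrane. The urothelium, the lining epithelium of the bladder, is known as one of the tightest epithelia of the body. In a bulk sample, fewer cells of a type and less RNA per cell cannot be told apart.

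The promoters below are shown because Cldn4 and Cldn3 are neighbours of very different level, Cldn5 is the endothelial claudin of the list and Epcam is a general epithelial gene. Each line gives the 250 bases before a RefSeq start site (GRCm38.p6), 5′ to 3′ on the strand of the gene. They are chr5:134946935-134947184 on the minus strand for Cldn4, chr5:134985964-134986213 on the plus strand for Cldn3, chr16:18776597-18776846 on the plus strand for Cldn5 and chr17:87635729-87635978 on the plus strand for Epcam. Capitals mark matches on either strand to CAGGTG, the E-box read by Snail and ZEB repressors, to GGGCGG, the GC box, to TATAAA, the TATA box, or to AACCGGTT, the Grainyhead motif.
Cldn4: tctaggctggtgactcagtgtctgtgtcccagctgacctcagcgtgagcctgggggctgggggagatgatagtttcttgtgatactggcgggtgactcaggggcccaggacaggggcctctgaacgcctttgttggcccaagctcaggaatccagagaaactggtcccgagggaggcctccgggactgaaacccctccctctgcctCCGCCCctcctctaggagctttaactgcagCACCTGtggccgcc
Cldn3: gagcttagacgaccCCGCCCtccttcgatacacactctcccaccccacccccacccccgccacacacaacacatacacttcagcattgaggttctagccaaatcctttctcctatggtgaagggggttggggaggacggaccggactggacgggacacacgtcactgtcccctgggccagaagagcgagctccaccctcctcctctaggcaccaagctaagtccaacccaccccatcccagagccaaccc
Cldn5: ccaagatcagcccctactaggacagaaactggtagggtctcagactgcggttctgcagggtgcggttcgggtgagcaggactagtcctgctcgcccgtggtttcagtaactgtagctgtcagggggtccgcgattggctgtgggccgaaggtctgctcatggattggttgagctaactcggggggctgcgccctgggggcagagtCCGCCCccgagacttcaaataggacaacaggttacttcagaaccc
Epcam: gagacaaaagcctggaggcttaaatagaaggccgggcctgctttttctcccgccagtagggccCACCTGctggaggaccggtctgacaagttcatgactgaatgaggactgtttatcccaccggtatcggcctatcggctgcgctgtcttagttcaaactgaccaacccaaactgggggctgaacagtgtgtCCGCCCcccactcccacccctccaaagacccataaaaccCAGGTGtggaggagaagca

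The E-box letters began 14 bases before the start of Cldn4 and 19 and 187 bases before that of Epcam, and were not in the Cldn3 and Cldn5 windows. The GC box letters were in all 4 windows, 44 bases before the start in Cldn4, 45 in Cldn5, 58 in Epcam and 236 in Cldn3. RefSeq start sites were given for 27 of the 34 genes, with 42 windows. Of these windows 33.3% held the E-box letters, against 17.2% of all 32851 windows and 15.6% of the windows of detected protein-coding genes. The GC box letters were in 64.3% of the windows of the list, in 32.7% of all windows and in 57.5% of those of detected protein-coding genes. TATA letters were in 9.52% of the windows of the list, 12.4% of all windows and 6.34% of those of detected protein-coding genes. The Grainyhead letters were in 0%, 0.116% and 0.214%. The 4 searched motifs do not overlap in sequence, and a match is a description of letters only.

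Levels are in TPM, a relative transcript abundance, which divides by transcript length and so allows genes to be compared. A gene was called detected at 1 TPM or more in both pups. Of the 34 genes 27 were detected, or 79.4%, against 58.5% of all protein-coding genes. The 7 genes not detected were all claudins. Of the 17 claudins 10 were detected, or 58.8%, which is near the 58.5% of all protein-coding genes. The median of the 34 mean levels was 10.1 TPM, against 3.36 TPM for all protein-coding genes and 14.3 TPM for detected ones. At 10 TPM or more in both pups were 16 genes, and at 50 TPM or more 6: Cldn4, Cldn8, F11r, Cldn7, Cdh1 and Epcam. The gene closest above the threshold was Cldn3 at 2.30 and 1.91 TPM, and the closest below was Cldn11 at 0.91 TPM in pup 1 and 1.06 TPM in pup 2.

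**Figure D1:**
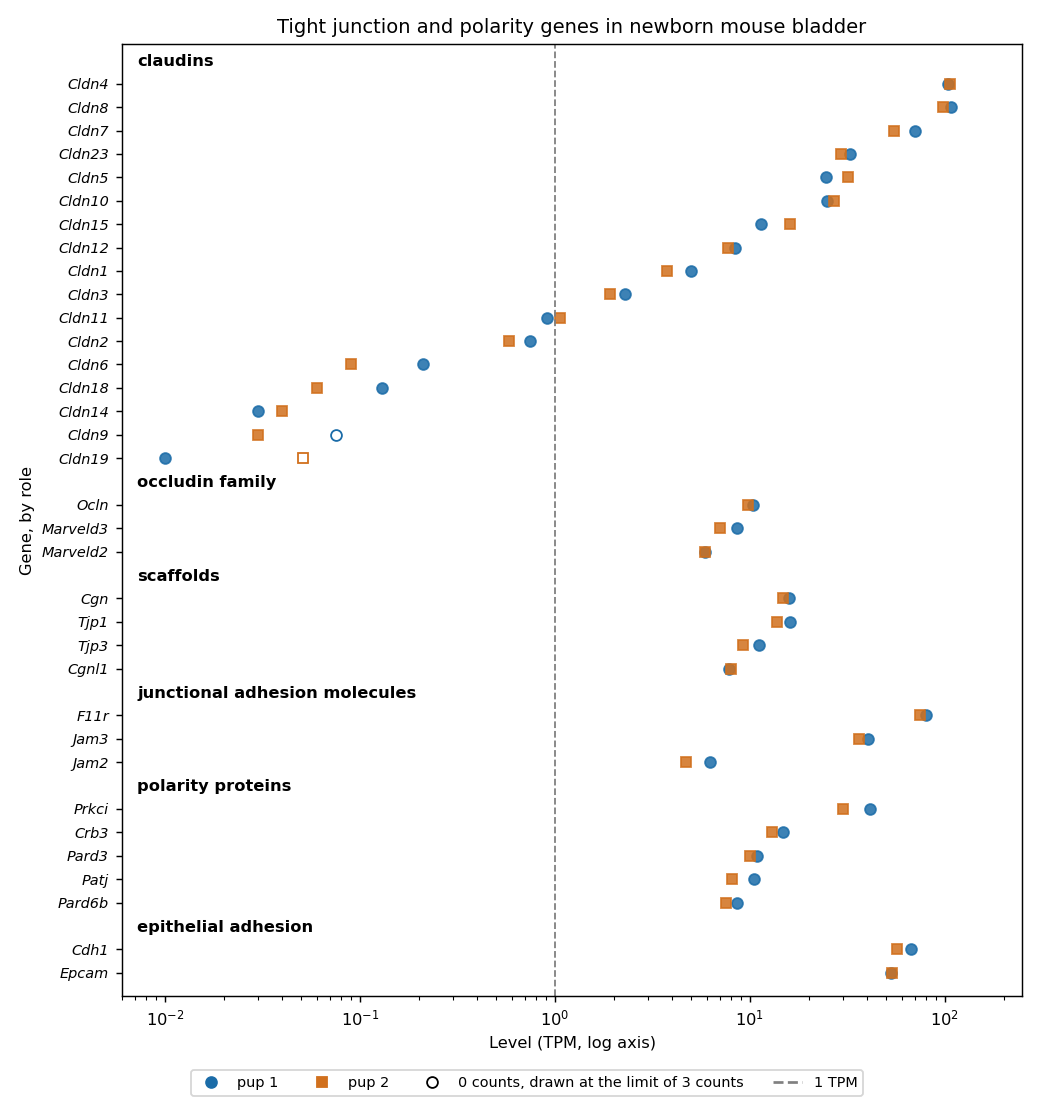
Level of each of the 34 genes in TPM (log axis), grouped by role, with a circle for pup 1 and a square for pup 2. Open symbols stand for a count of 0 and are drawn at the level that 3 counts would give, and the dashed line is 1 TPM. The non-claudin genes lie between 4.72 and 80.3 TPM, whereas the claudins run from single counts to above 100 TPM.

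Claudins made up the largest and the most uneven group. Cldn4, a barrier claudin of many epithelia (ENSMUSG00000047501, chromosome 5, 134945119 to 134946934), was at 103.82 TPM in pup 1 and 106.48 TPM in pup 2, on 5314 and 4355 counts, or 105 ± 1.88 TPM (SD, n = 2). Cldn8, a sealing claudin best known from the distal nephron (ENSMUSG00000050520, chromosome 16, 88560828 to 88563183), was at 107.80 and 98.26 TPM, on 7283 and 5304 counts. The order of these leading claudins differed between the pups, Cldn8 being the higher in pup 1 and Cldn4 in pup 2, so their levels did not differ beyond the spread. By mean level, Cldn4 stood above 94.2% and Cldn8 above 94.1% of protein-coding genes. Cldn7, which sits on the basolateral membrane and binds Epcam, was the third at 70.66 and 54.58 TPM, below Cldn4 and Cldn8 in both pups.

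The following 4 claudins lay between 11.4 and 32.5 TPM. Cldn23 was at 32.49 and 29.19 TPM. Cldn5, the main claudin of endothelium, was at 24.62 and 31.83 TPM. Cldn10, which forms ion-selective pores, was at 24.88 and 27.03 TPM. The order of these 3 changed between the pups, with Cldn23 first in pup 1 and Cldn5 first in pup 2. Cldn15, a cation pore known from the intestine, was lower than these at 11.36 and 16.04 TPM.

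Low claudins followed in the same order in both pups. Cldn12, a claudin without the usual PDZ-binding tail, was at 8.37 and 7.73 TPM. Cldn1, required for the water barrier of the epidermis, was at 4.98 and 3.77 TPM and Cldn3, a sealing claudin, at 2.30 and 1.91 TPM. Cldn2, the cation and water pore of leaky epithelia, was at 0.75 and 0.58 TPM on 66 and 41 counts. Thus the pore claudin Cldn2 was under 1 TPM in both pups while the pore claudins Cldn10 and Cldn15 were above 10 TPM in both.

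Of the other undetected claudins, Cldn11, known from myelin and Sertoli cells, had 48 and 45 counts, and 5 had under 10 counts per pup. Cldn6, a claudin of embryonic epithelia, had 9 and 3 counts and Cldn18, known from lung and stomach, 4 and 3. Cldn14 had 1 count in each pup, Cldn9 had 0 and 1, and Cldn19, which Schwann cells and the kidney use, 1 and 0. The depth limit at no count is 3 counts, which is 0.0750 TPM for Cldn9 in pup 1 and 0.0513 TPM for Cldn19 in pup 2. No fold between pups is given for Cldn9, Cldn14 and Cldn19, which stood at or under that limit in both pups. Cldn6 had a log2 ratio, pup 2 over pup 1, of -1.18, with a 95% counting interval from -3.70 to 0.82, so a difference was not detectable at this depth.

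The make-up of the claudin transcripts was close in the littermates. The 17 claudins summed to 393 TPM in pup 1 and 379 TPM in pup 2. Cldn4 and Cldn8 together held 53.8% of this sum in pup 1 and 54.1% in pup 2. With Cldn7 the share was 71.8% and 68.5%, or 70.1 ± 2.33% (SD, n = 2), and the 7 highest claudins held 95.5% and 96.0%. Single shares moved more: Cldn7 held 18.0% in pup 1 and 14.4% in pup 2, Cldn5 6.26% and 8.41%, and Cldn15 2.89% and 4.24%.

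**Figure D2:**
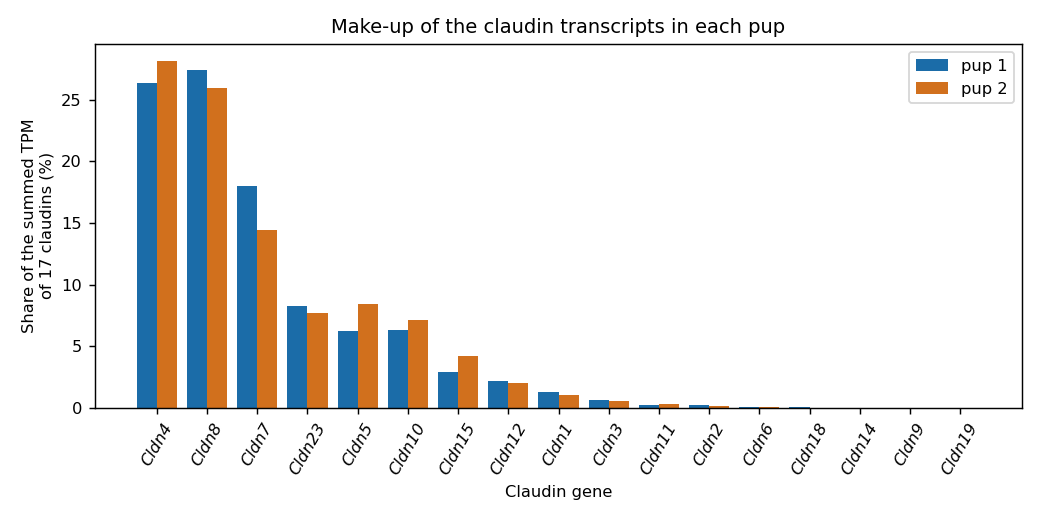
Share of the summed TPM of the 17 claudins held by each claudin, in percent, with 1 bar per pup. Cldn4 and Cldn8 hold over 25% each in both pups, Cldn7 follows at 18.0% and 14.4%, and 10 claudins together hold under 5%.

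Several claudin genes lie next to each other in the genome, and the neighbours differed in level. On chromosome 5, Cldn4 and Cldn3 (134986214 to 134987472) are 39.3 kb apart on opposite strands with no other gene of the files lying wholly between them. The TPM of Cldn4 was 45.1 times that of Cldn3 in pup 1 and 55.7 times in pup 2. Cldn13, on the other side of Cldn4 at 29.6 kb, had 3 and 8 counts. On chromosome 16, Cldn8 had 7283 and 5304 counts whereas Cldn17, 53.8 kb away on the same strand, had 0 and 2. Also on chromosome 16, Cldn1 (26356642 to 26371841) had 469 and 284 counts while Cldn16, at 91.3 kb, had 0 in both. Cldn6 and Cldn9, on chromosome 17 with 137 bases between their ends, were both nearly silent, with 9 counts or fewer. Cldn13, Cldn16 and Cldn17 are not among the 34 genes and were taken here for their position.

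**Figure D3:**
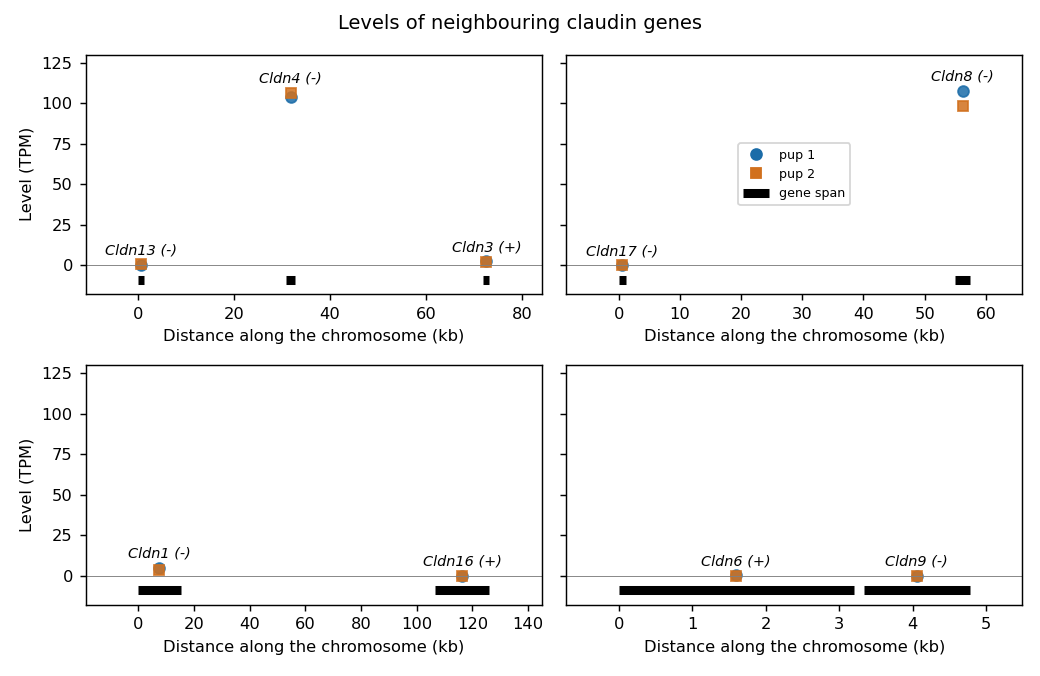
Level in TPM (vertical axis) of neighbouring claudin genes against distance along the chromosome in kb from the first base of the left gene, in 4 panels, with circles for pup 1, squares for pup 2, black bars for the gene spans and the strand in brackets. Cldn4 and Cldn8 stand near 100 TPM (98.26 to 107.80), and each gene drawn beside them is below 3 TPM.

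A single-exon structure was shared by 5 of the 10 detected claudins, Cldn3, Cldn4, Cldn5, Cldn8 and Cldn23, by their leading transcript. These covered the whole range of the detected claudins, from 2.11 TPM for Cldn3 to 105 TPM for Cldn4 by mean level.

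All 3 occludin family genes were detected at low level. Ocln, occludin, was at 10.37 and 9.82 TPM, Marveld3 at 8.60 and 7.06 TPM and Marveld2, tricellulin, the protein of the points where 3 cells meet, at 5.87 and 5.90 TPM. Ocln was the highest and Marveld2 the lowest in both pups. Even the highest of them was near the level of the median gene of the list, and far below Cldn4 and Cldn8.

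All 4 scaffold genes were detected between 7.82 and 16.1 TPM. Cgn, cingulin, which links the junction to actomyosin, was at 15.80 and 14.76 TPM, and its relative Cgnl1 at 7.82 and 8.05 TPM. Tjp1, which encodes ZO-1, was at 16.09 and 13.71 TPM and Tjp3, ZO-3, at 11.14 and 9.25 TPM. Over all transcripts Tjp1 was higher in pup 1 and Cgn in pup 2, so these were level within the spread, while both exceeded Tjp3 and Cgnl1 in each pup. Over coding transcripts alone Tjp1 was at 12.53 and 9.94 TPM, below Cgn at 15.80 and 14.75 TPM in both pups.

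The junctional adhesion molecules are immunoglobulin proteins at the junction and differed widely. F11r, JAM-A, which is shared by epithelium, endothelium and blood cells, was the third gene of the list at 80.28 and 74.33 TPM, over all its transcripts. Jam3, JAM-C, was at 40.18 and 36.36 TPM, and Jam2, JAM-B, known from vessels, at 6.25 and 4.72 TPM. F11r exceeded Jam3 by 2.00 and 2.04 times in TPM and Jam2 by 12.8 and 15.7 times. Over coding transcripts alone F11r was at 56.84 and 61.53 TPM and Jam3 at 37.99 and 33.73 TPM, a ratio below 2 in both pups. The mean coding level of F11r, 59.2 TPM, was below those of Cldn7 (62.6 TPM) and Cdh1 (61.9 TPM), but the order reversed between the pups. In pup 1 Cldn7, at 70.66 TPM, and Cdh1, at 66.63 TPM, were above F11r over coding transcripts. In pup 2, at 54.59 and 57.09 TPM, both were below it, so these genes were level within the spread. The Cldn7 transcript of highest TPM alone, at 55.83 and 42.28 TPM, was below coding F11r in both pups.

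All 5 polarity genes were detected. Prkci, the atypical protein kinase C of the Par complex, stood highest at 41.10 and 29.95 TPM. Crb3, the epithelial Crumbs protein, was at 14.75 and 13.06 TPM, the Par scaffold Pard3 at 10.86 and 10.00 TPM, the Crumbs complex scaffold Patj at 10.46 and 8.09 TPM and the adaptor Pard6b at 8.64 and 7.53 TPM. Over all transcripts the order of the 5 was the same in both pups, although Pard3 and Patj differed by less than 1 TPM in pup 1. Patj over coding transcripts alone was at 9.49 and 6.63 TPM, above Pard6b in pup 1 and below it in pup 2. Related genes outside the list were present too, chosen here after their values were seen: Prkcz was at 14.06 and 13.50 TPM, below Prkci, whereas Pard6g, at 19.70 and 16.48 TPM, and Pard3b, at 23.35 and 19.69 TPM, were at 2.28 and 2.19 times Pard6b and at 2.15 and 1.97 times Pard3. Over coding transcripts alone, Pard3b was at 12.04 and 9.65 TPM, just 1.21 and 1.07 times Pard3.

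The epithelial adhesion genes stood below Cldn4 and Cldn8 in both pups and nearer to Cldn7. Cdh1, E-cadherin, the adherens junction cadherin of epithelia, was at 67.38 and 57.09 TPM on 8651 and 5914 counts, the most counts of any gene of the list. Epcam, an epithelial membrane protein that binds claudin-7, was at 53.18 and 53.59 TPM. Cdh1 and Cldn7 changed order between the pups, and both, summed over their transcripts, exceeded Epcam in each. For Cldn7 this rested in pup 2 on a short transcript. A coding transcript of 373 nt held 17.8% and 17.3% of Cldn7 TPM on 4.64% and 4.52% of its counts. The Cldn7 transcript of highest TPM alone, at 55.83 and 42.28 TPM, was above Epcam in pup 1 and below it in pup 2.

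The leading transcript of a gene, the one of highest TPM, was mostly shared by the pups, although it held under 60% of the gene in at least 1 pup in 9 genes. Of the 27 detected genes, 26 had the same one in both pups, 9 of these because the files hold just 1 transcript for them. The exception was Crb3, with the transcripts Crb3-205 at 7.36 and 5.84 TPM and Crb3-202 at 5.18 and 6.23 TPM in pup 1 and pup 2. Pard3 has 28 transcripts in the files, 9 of them above 0 TPM in pup 1 and 8 in pup 2, of which Pard3-209, with 25 exons, held 44.4% and 47.7% of TPM, and a shorter coding transcript with 16 exons held 29.5% and 31.6%. The division of reads among transcripts is an estimate of the deposited quantification.

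Reads were assigned to Cldn10 transcripts from both of its start sites. The transcript from the downstream start, Cldn10-203 (chromosome 14, 118854732 to 118875489), was at 14.51 TPM in pup 1 and 18.55 TPM in pup 2. The transcript from the start 66.8 kb upstream (118787908 to 118874524) was at 10.37 and 8.48 TPM. The transcript with the downstream start was the higher in both pups, with 58.3% and 68.6% of the TPM of the gene, or 73.0% and 80.9% of its counts. The 2 transcripts also differ in their last base (118875489 against 118874524) and in length (2128 against 1148 nt). Their split is thus not a measure of start site use alone. The alternative first exons give claudin-10 proteins with different first extracellular segments.

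Short transcripts not annotated as coding raised the level of some genes. F11r-203, a retained-intron transcript of 678 nt, held 8.98% of the F11r counts in pup 1 but 29.2% of its TPM, and 4.57% and 16.6% in pup 2. The coding transcript of F11r was at 56.84 TPM in pup 1 and 61.53 TPM in pup 2, so it was higher in pup 2 while the summed gene TPM was lower. For Tjp1, the processed transcript Tjp1-203 of 699 nt held 22.2% and 27.4% of TPM on 2.42% and 3.20% of counts. Over coding transcripts alone, the mean level was 59.2 TPM for F11r, 11.2 TPM for Tjp1, 3.67 TPM for Jam2 and 8.06 TPM for Patj, against 77.3, 14.9, 5.49 and 9.28 TPM over all transcripts. These 4 were the detected genes in which coding transcripts held under 90% of TPM, and they were chosen for that after their values were seen.

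**Figure D4:**
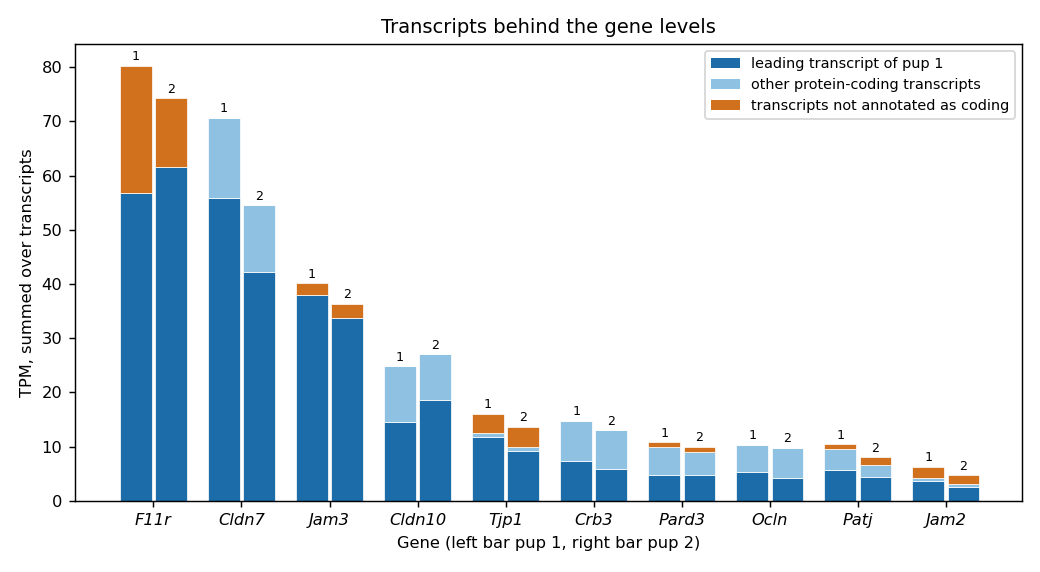
TPM of 10 genes summed over their transcripts, left bar pup 1 and right bar pup 2, split into the leading transcript of pup 1, other protein-coding transcripts and transcripts not annotated as coding. F11r carries the tallest non-coding part, at 23.44 TPM in pup 1 and 12.80 TPM in pup 2, and Cldn10 and Crb3 are split among coding transcripts.

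Exons of few genes of the list overlapped other genes, which matters as the strand setting is not known. Tjp3 shares 40 exon bases with Apba3 on the opposite strand, 1.08% of its exon length, with Apba3 at 32.9 and 35.9 TPM. Crb3 shares 14 bases with Dennd1c and Cldn3 40 bases with Wbscr25, both at 1.40 TPM or less. For Jam3, 36.2% of exon bases are shared with Gm48796 on the opposite strand, a gene of the M21 annotation that is not an entry of the files used here, so reads of the 2 genes cannot be told apart.

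Between the littermates no gene of the list that reached a mean count of 100 was 2-fold apart. Ratios are pup 2 over pup 1 on the log2 scale, from counts scaled with TMM factors, and intervals are exact binomial intervals at 95% that cover counting error only. Of the 34 genes 26 had a mean count of at least 100. Of these, 0 were 2-fold higher in pup 2, against 1.70% of all genes at that count, and 0 were 2-fold lower, against 0.283%, or 1.98% in either direction. At 1.5-fold it was 0 against 4.91%. At least 1.2-fold apart were 7, or 26.9%, against 23.4% of all such genes, a share near the background. By ratio of TPM, a measure added for this fold after seeing the data, it was 9 genes, against 30.9% of all such genes.

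The 3 of these 7 genes that were higher in pup 2 were all claudins, as were Cldn1 and Cldn7 among those lower. Claudins made up 9 of the 26 genes at that count. Cldn15 had 600 counts in pup 1 and 671 in pup 2, a log2 ratio of 0.57 (0.40 to 0.73), and Cldn5 had 969 and 1001 counts, a ratio of 0.45 (0.32 to 0.58). Cldn10 had 1207 and 1113 counts and a ratio of 0.29 (0.17 to 0.41). The Cldn10 ratio of TPM was 0.12, under 1.2-fold. Lower in pup 2 were Jam2 at -0.40 (-0.61 to -0.20), Prkci at -0.37 (-0.43 to -0.31), Cldn1 at -0.32 (-0.54 to -0.10) and Cldn7 at -0.30 (-0.40 to -0.20). With 1 library per pup, animal, dissection and library cannot be told apart.

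For the remaining genes at that count the ratios ran from -0.24 for Tjp1 to 0.13 for F11r. Counting intervals lay above equal levels in 6 of 26 genes, or 23.1%, against 22.3% of all such genes, and below in 9, or 34.6%, against 30.0%. Both shares were near the background. Over the 29 genes whose mean count reached 20 the median ratio was -0.06, with 11 genes higher and 18 lower in pup 2, beside a median of -0.02 over all protein-coding genes at that count. By role the median was -0.05 for claudins, -0.05 for the occludin family, -0.11 for scaffolds, -0.07 for junctional adhesion molecules and -0.12 for polarity genes.

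**Figure D5:**
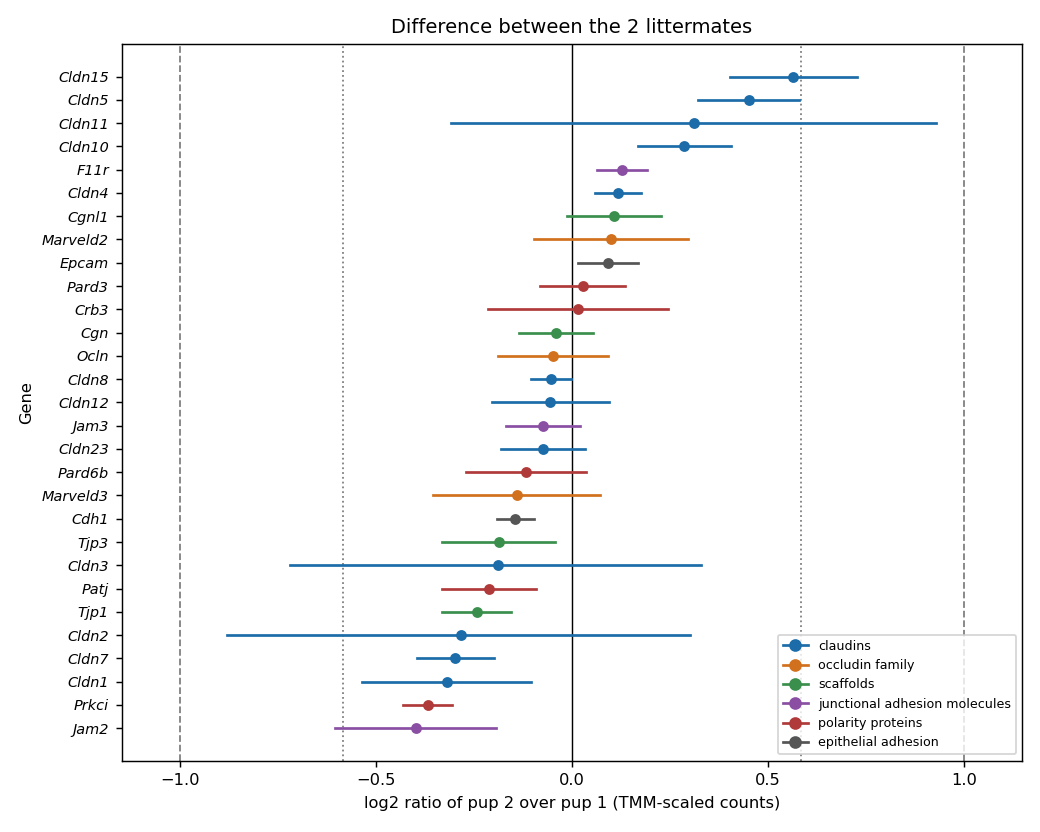
Log2 ratio of pup 2 over pup 1 (horizontal axis) for the 29 genes that reached a mean count of 20, in order, coloured by role, with bars for the 95% counting interval. Dotted lines mark 1.5-fold and dashed lines 2-fold, and all points lie inside the dotted lines, from -0.40 for Jam2 to 0.57 for Cldn15.

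Markers of epithelial, endothelial and mesothelial cells, which could carry these genes, were set beside them. The 8 superficial urothelium markers summed to 10453 TPM in pup 1 and 9729 TPM in pup 2, all 8 were detected, and their median log2 ratio was -0.03. The 6 basal urothelium markers summed to 1180 and 1185 TPM and all 6 were higher in pup 2, with a median ratio of 0.12. The 8 endothelial markers summed to 130 and 140 TPM, with a median of -0.01 and a range from -0.24 to 0.49. Cldn5, at 0.45, was above 7 of the 8, which ran from -0.24 to 0.23, and below Egfl7 at 0.49. Its TPM was 0.93 times that of the endothelial marker Pecam1 in pup 1 and 1.26 times in pup 2. Esam, an endothelial gene of the further lists, was at 0.34 (0.22 to 0.45), an interval that overlaps that of Cldn5 (0.32 to 0.58). Jam2, at -0.40, was below all 8 endothelial markers. Of the 4 lymphatic endothelial markers 2 were detected and 3 were higher in pup 2, with a median ratio of 0.32. Lyve1 was at -0.45 and Ccl21a at 1.14, the ends of that list, with Flt4 at 0.15 and Prox1 at 0.49 between them. All 6 mesothelial markers were detected, with 409 and 390 TPM in sum.

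Markers of other sources stood at varied levels. The 6 smooth muscle markers summed to 59133.5 TPM in pup 1 and 54169 TPM in pup 2. The 6 fibroblast markers summed to 10031.4 and 8693.82 TPM, and all markers of both lists were detected. Which cells carried each junction gene was not tested. The 6 Schwann cell markers summed to 31.0 and 42.1 TPM, all detected, and without Fabp7 to 24.4 and 25.2 TPM. Kidney tubule markers summed to 0.18 and 0.27 TPM, with Umod and Slc12a1 at 0 counts in both pups. Of the 4 prostate and male duct markers 1 was detected, with Pbsn and Pax2 at 0 counts, and of the gut list Cdx2, while Lgals4 was detected at 7.31 and 8.88 TPM. Blood and liver markers differed most between the pups: the 5 erythroid markers summed to 21719 and 59101 TPM, the 6 macrophage markers to 514 and 1766 TPM and the 4 liver markers to 64.0 and 13.9 TPM. Their part in the ratios of the junction genes was not tested.

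Of 75 other genes of the junction 74 were found. Detected were 61 of these, or 82.4%, against 58.5% of all protein-coding genes. The same background applies to the counts detected in each single list below. Of 12 further claudins and claudin-domain genes just 2 were detected, or 16.7%. The highest was Cldnd1 at 99.52 and 79.70 TPM, followed by Cldn34c1 at 6.87 and 7.84 TPM and Cldn22 at 0.56 and 0.33 TPM. Cldn16, Cldn20, Cldn24, Cldn34a, Cldn34b1, Cldn34d and Cldnd2 had 0 counts in both pups.

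Of the further scaffolds and proteins associated with them 10 of 11 were detected. The highest were Amotl2 at 54.41 and 48.97 TPM, Ybx3 at 47.98 and 44.26 TPM and Tjap1 at 19.85 and 19.49 TPM. All 3 genes of the angulin family, which recruit tricellulin to tricellular contacts, were detected: Lsr at 39.53 and 38.15 TPM, Ildr1 at 32.15 and 27.08 TPM and Ildr2 at 2.61 and 1.63 TPM. Lsr and Ildr1 were thus above Marveld2 in both pups. Of the other junctional immunoglobulins 4 of 5 were detected, with Clmp at 33.08 and 39.41 TPM, the endothelial Esam at 25.40 and 29.91 TPM and Igsf5 at 26.64 and 26.37 TPM. Over coding transcripts alone Clmp was at 26.41 and 25.40 TPM, no longer higher in pup 2.

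Of the other polarity genes 11 of 12 were detected, with Lin7c at 33.59 and 27.22 TPM, Pard3b as given above and Dlg1 at 22.68 and 16.55 TPM. Over coding transcripts alone Dlg1 was at 14.90 and 10.33 TPM, and Pard6g, Llgl1 and Llgl2 then stood above both Dlg1 and Pard3b by mean level. All 14 adherens junction genes passed 1 TPM, at a median of 40.3 TPM. The highest were Vcl, vinculin, at 264.81 and 203.82 TPM, beta-catenin, Ctnnb1, at 227.52 and 204.10 TPM and alpha-catenin, Ctnna1, at 156.22 and 122.55 TPM. The membrane protease inhibitor Spint2 was at 342.66 and 330.80 TPM and its relative Spint1 at 71.94 and 78.99 TPM, so both were above Epcam in each pup.

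All 13 transcription factors of the epithelial list were detected, activators and repressors alike. The Grainyhead factor Grhl3 was at 64.13 and 53.89 TPM, Klf5 at 30.03 and 30.75 TPM and the E-cadherin repressor Snai1 at 29.00 and 29.59 TPM. Of the 60 genes of these lists that reached a mean count of 100, none was 2-fold apart between the pups. Among all genes at that count the share was 1.98%, so this is near the background.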

How the data were processed

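Per the labels, RNA from 2 newborn bladders was extracted with the Ambion mirVana method, with spike-in RNAs added. The text listing that came with the samples names mm10 and GENCODE M4 for the gene and transcript tables that the authors deposited. The aligner, estimator version and strandedness were not given in the sources used here. Expected counts, as deposited, are estimates, with multi-mapped reads divided by the authors' estimator. The deposited TPM is scaled over all entries of a file, and the deposited FPKM and percent of a gene per transcript follow from the same estimate. The posterior SD of each count, also deposited, served as a check and is not reported.

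Total expected counts were 43653931 (pup 1) and 32564563 (pup 2). Up to 3 counts are allowed by a 0, or 0.100 and 0.125 TPM per kb of effective length. Intervals and this limit cover counting error only, since PCR copies are not told apart. Symbols, coordinates and transcript types came from GENCODE M21 (same assembly), by identifier, and promoters from RefSeq. Rounded counts of mouse genes were scaled with TMM (edgeR 4.0.16, R 4.3.3), with a count of 0 set to 3. DESeq2 1.42.0 size factors were an alternative. Python 3.11.15, pandas 2.3.3 and scipy 1.17.1 were used, and the ratio step was tested on simulated data.

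The 34 genes and all lists were chosen with earlier results of these data known. Named were all 34, the 3 highest of each further list (some genes are not reported here), and transcripts of genes at 10 TPM or more with under 60% in the leading transcript or a changed leader. F11r-203, Tjp1-203 and other named exceptions were chosen after their values were seen. Cldn25 was not found in the annotation used. Alternatives covered thresholds, scalings, posterior means, count filters and each pup alone.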

Additional observations from a re-analysis of the deposited data

How the results depend on the processing

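No paired analysis was possible because the samples form 1 group, with no second group to share replicate numbers. With globin and mitochondrial genes left out of the scaling, the median level of the 34 genes was 11.1 TPM against 10.1 TPM, and the levels of the 27 genes with a mean of at least 1 TPM rose by 1.09 to 1.10 times. With no filter on low counts, 3 genes were 2-fold apart, against 0: Cldn6, on 9 and 3 counts, and Cldn9 and Cldn19, which have 1 count in one pup and 0 in the other, so that the ratio comes from setting 0 to 3. Among genes at 10 TPM or more, 15 of 16 kept the same leading transcript, a lower number because fewer genes enter, and with posterior mean values 27 of 27 did, Crb3 included. By transcript counts it was 26 of 27, with Cgnl1 in place of Crb3 as the exception and another leader for Ocln. The number detected was 26 to 29 under 6 alternatives, among them protein-coding transcripts alone, added after seeing the data, which gave 27, and it was 27 to 28 with a single pup. A single pup gave a median of 9.54 to 10.7 TPM, 68.5 to 71.8% for the 3 highest claudins and 61 to 61 detected genes of the further lists. The median ratio was -0.14 by TPM, and -0.06 to -0.04 under the other count scalings. By TPM the ratios of F11r, Pard3 and Crb3, all within 0.13 of 0, changed sign. Posterior mean TPM raised Patj by 1.17 times, and coding transcripts alone put Jam2 at 0.67 times its level. Depth limits Cldn6, Cldn9, Cldn14, Cldn18 and Cldn19, whose counts cannot show differences between the pups.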
